A study of Mus musculus with 10 samples.

Results

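The proteasome genes described here are 45 of the 27151 genes in a table of mouse tongue RNA. They were chosen by name: 14 genes of the constitutive 20S core (7 alpha and 7 beta subunits), 18 of the 19S cap (10 of the base and 8 of the lid), 8 assembly chaperones, 3 genes for activators and an inhibitor, and 2 deubiquitinases bound to the cap. The interferon-inducible subunits were kept apart. This set was selected on results of the same comparison, in which proteasome genes were seen to be higher, so the fold changes and calls below describe the members and lend no support of their own. All 45 were in the table and all 45 passed the filter on low values.

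The RNA came from tongues of C57BL/6J mice exposed to 4NQO (4-nitroquinoline 1-oxide), a carcinogen used to induce oral tumours. Exposed mice received either vehicle, giving 4 libraries, or SP2509, giving 6. SP2509 is a small molecule that blocks LSD1, an enzyme that takes methyl groups off histones. Both groups carried the 4NQO exposure, so no library stands for an unexposed tongue. The labels give no age, dose or duration, write the treatment in the titles of the 6 libraries as SP2509h without explaining the h, and do not say that each library is a mouse of its own. The p-values below therefore weigh the group difference against the spread of libraries, and part of that spread may be technical. If some libraries share a mouse, the p-values may be too low for a statement about mice.

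The 26S proteasome degrades proteins that carry ubiquitin chains. Its 20S core is a barrel of alpha rings around beta rings, and the beta subunits encoded by Psmb5, Psmb6 and Psmb7 cut the substrate. The 19S cap binds the ubiquitin chain, removes it, unfolds the protein with a ring of ATPases and feeds it into the core. Dedicated chaperones build the core and the base, and the transcription factor NRF1, encoded by Nfe2l1, raises many proteasome genes together when proteasome activity falls short. Epithelium and muscle, both present in the tongue, use the constitutive proteasome for protein turnover.

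Values are normalised reads per gene, that is, reads divided by a size factor of the library. Libraries held 9180844 to 14768955 reads in vehicle and 15748571 to 19375555 in SP2509, and mitochondrial genes took 35.3% to 52.1% and 24.0% to 32.2% of them. The lowest count of any member in a library was 18 reads (Psmd10, vehicle replicate 1, the shallowest library). In genes with many reads, SP2509 replicates 1 and 2, and replicates 4 and 5, were closer to each other than other replicates were. Their spread relative to the Poisson expectation was 3.49 and 3.72, against 11.1 to 162 in the other 19 pairs. Over the proteasome members it was 2.71 and 3.12, and lower, at 2.38, in vehicle replicates 3 and 4. In genes with few reads it was 2.40 and 3.515. There vehicle replicates 3 and 4 had 2.70, and SP2509 replicate 3 had 2.88 with replicate 1 and 3.075 with replicate 2. Both close pairs together thus stood apart only in genes with many reads. Each close pair was averaged to 1 unit for means and SDs, which gives n = 4 units of SP2509. Presence in the table does not speak for the tissue label, since every gene of each marker list, also of gland and adipocyte, was in it. Of the markers of the tissue, 17 of 17 keratinocyte genes and 12 of 12 skeletal muscle genes were in the table. Their summed normalised reads ran from 106188 to 141976 in vehicle and 72894 to 358395 in SP2509 for keratinocyte genes, and from 149822 to 326077 and 267982 to 780295 for muscle genes. The top of the muscle range and the bottom of the keratinocyte range in SP2509 were both replicate 6, and gland genes reached 422353 in replicates 4 and 5 against at most 513 in vehicle. In RNA from whole tissue, a change in the number of cells of a type and a change in RNA per cell cannot be told apart.

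All 45 proteasome genes had a higher fitted level in SP2509 than in vehicle with the deposited scaling, as did 51.9% of the 17088 genes tested, and 41 to 43 of the 45 did under 3 other scalings (given at the end). Of the 45, 17 rose at an adjusted p under 0.05 (limma on log2 of value + 1, two-sided, Benjamini-Hochberg over 17088 genes), where 4.95% of all genes were called higher. None fell by limma, edgeR or DESeq2, and none had a negative fold change at any p, where 4.15% of all genes were called lower. In 27 members every SP2509 library lay above every vehicle library, which 6.54% of all genes did. The median log2 fold change of the 45 was 0.40 and that of all genes 0.02. As a share of reads outside mitochondrial genes, the members took 0.393% to 0.437% in vehicle and 0.467% to 0.513% in SP2509, without overlap.

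The calls rest on counting all 10 libraries separately. With the close pairs averaged, the medians were nearly the same (0.40 for all members) but limma called no gene of the table, and the lowest adjusted p was 0.0718. In that fit 28 of the 45 members had an unadjusted p under 0.05, as did 21.3% of all genes, and the adjusted p of the 17 called members ran from 0.0718 to 0.122. Wherever a gene is said below to have risen, the fit of 10 libraries is meant. All 17 were also called by edgeR and by DESeq2 on the recovered whole reads of the 10 libraries, which called 17 and 25 members higher, and 5.34% and 9.47% of all genes.

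**Figure D1:**
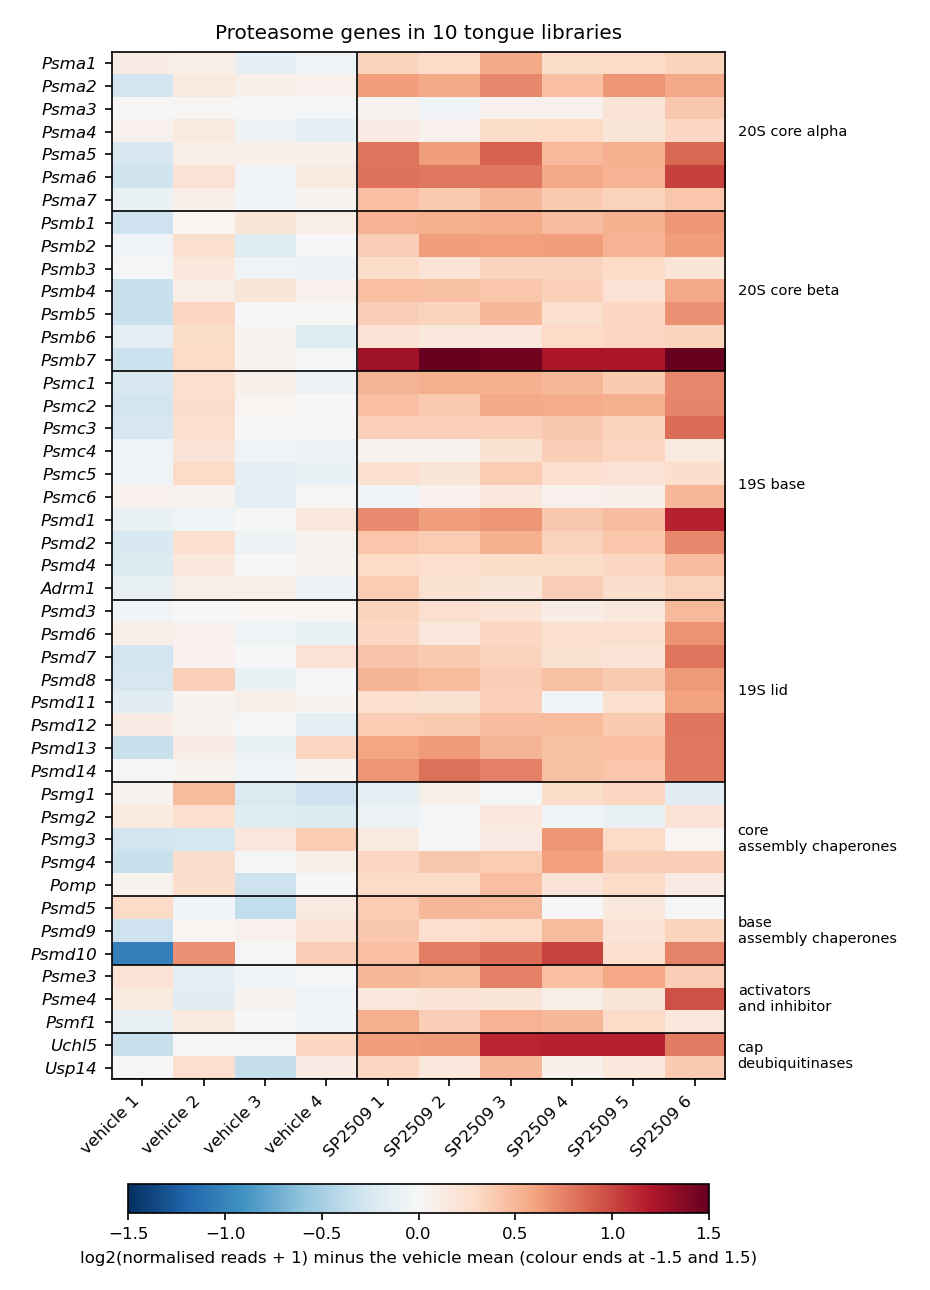
Level of each of the 45 genes (rows, grouped by role) in each of the 10 libraries (columns), as log2 of normalised reads + 1 minus the mean of the 4 vehicle libraries; red is higher and blue lower. Psmb7 is the darkest row, the core and cap rows are mostly red across the 6 SP2509 libraries, and rows of the assembly chaperones are mixed.

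Since the members were higher together, the letters of their promoters are shown. RefSeq windows on GRCm38.p6, from 250 bases before to 50 after the annotated start, were given for 37 of the 45 members (39 windows, Psma6 and Psmc2 having 2 each); the remaining members are Psmb1, Psmb2, Psmb7, Psmc3, Psmd3, Psmd7, Psmg2 and Usp14. The windows were searched on both strands for the core of the antioxidant response element, TGACNNNGC, the letters that NRF1 and NRF2 bind with small Maf proteins; for CCAAT, the box bound by NF-Y; for CCGGAAG, a core bound by ETS factors; for GAANNTTC, part of a heat shock element; and for the letters of an interferon response element. TGACNNNGC was in 8 of 39 member windows (20.5%) and in 12.4% of all 32851 windows. CCAAT was in 13 (33.3%) and in 37.4% of all windows. CCGGAAG was in 17 (43.6%) and in 8.86%. GAANNTTC was in 2 (5.13%, against 7.86%) and the interferon response element in 4 (10.3%, against 3.44%). No match overlapped a match to another of these motifs.

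The stretches of 100 bases below end at or before the annotated start and show one or more of these letters near it. Capitals mark the motif, on either strand, and all stretches are written 5′ to 3′ along the gene. Psmb5, Psmb6 and Uchl5 are shown for TGACNNNGC, Psma6 for CCAAT, Psmc2 for CCAAT and CCGGAAG, and Psmd2 and Psmg1 for CCGGAAG.
Psmb5, chr14:54618023-54618122, minus strand: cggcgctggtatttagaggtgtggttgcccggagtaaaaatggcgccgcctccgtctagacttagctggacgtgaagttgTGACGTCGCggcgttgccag
Psmb6, chr11:70525257-70525356, plus strand: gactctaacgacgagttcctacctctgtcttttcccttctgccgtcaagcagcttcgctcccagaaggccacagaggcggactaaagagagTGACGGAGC
Uchl5, chr1:143777172-143777271, plus strand: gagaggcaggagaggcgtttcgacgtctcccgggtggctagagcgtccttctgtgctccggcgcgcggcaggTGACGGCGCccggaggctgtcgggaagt
Psma6, chr12:55384122-55384221, plus strand: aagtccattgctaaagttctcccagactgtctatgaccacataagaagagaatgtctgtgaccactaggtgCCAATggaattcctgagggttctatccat
Psmc2, chr5:21785175-21785274, plus strand: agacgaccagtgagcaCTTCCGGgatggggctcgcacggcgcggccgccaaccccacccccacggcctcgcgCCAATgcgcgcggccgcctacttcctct
Psmd2, chr16:20651552-20651651, plus strand: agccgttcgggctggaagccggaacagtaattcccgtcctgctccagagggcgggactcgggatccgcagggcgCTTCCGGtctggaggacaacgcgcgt
Psmg1, chr16:95990961-95991060, minus strand: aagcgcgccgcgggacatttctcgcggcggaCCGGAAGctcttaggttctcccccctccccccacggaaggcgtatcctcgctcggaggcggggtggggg
Among members with a window, TGACNNNGC was in the windows of 2 of 14 that rose and 6 of 23 that were not called, CCGGAAG in 7 of 14 and 9 of 23, and CCAAT in 7 of 14 and 6 of 23. Of the genes printed, Uchl5, Psma6, Psmc2 and Psmd2 rose, and Psmb5, Psmb6 and Psmg1 did not pass the test. A match is a string of letters and not a measured binding site.

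**Figure D2:**
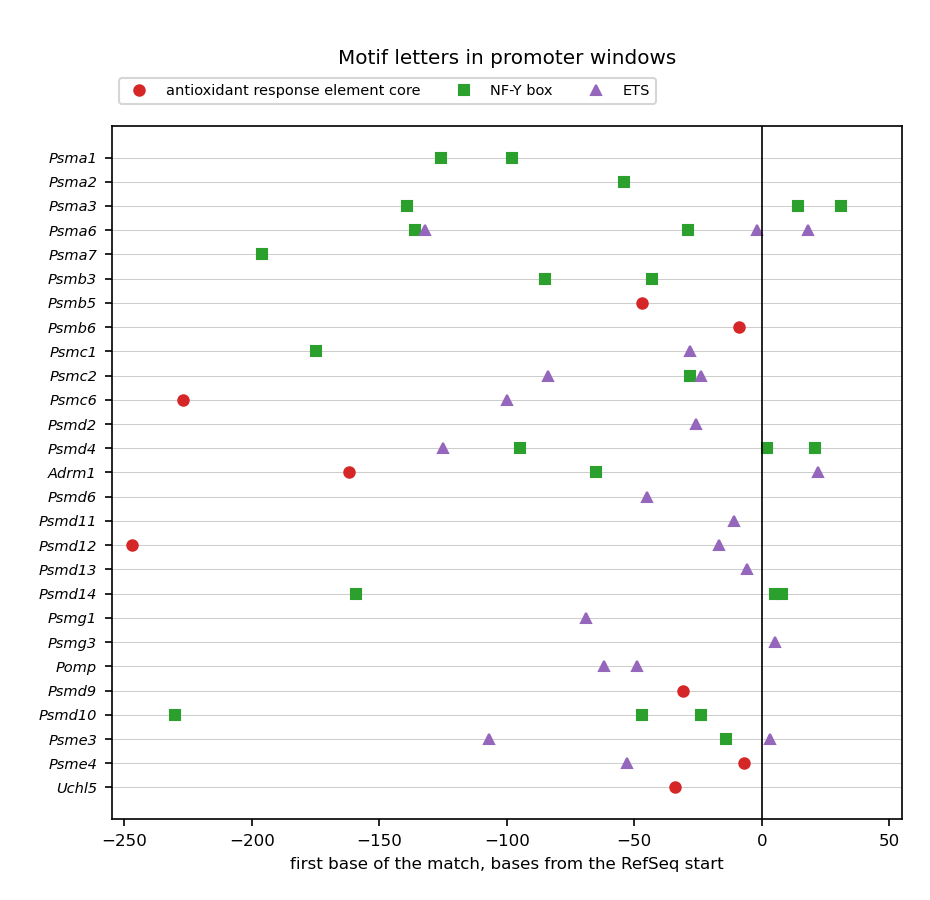
Position of the first base of each match to TGACNNNGC (circles), CCAAT (squares) and CCGGAAG (triangles), in bases from the RefSeq start (vertical line), in the windows of the 27 members that hold at least 1; both windows of Psma6 and Psmc2 share a row. ETS matches lie mostly close to the start, and TGACNNNGC matches of Psmb5, Psmb6, Psmd9, Psme4 and Uchl5 lie just before it.

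Of the 7 alpha subunits, which form the outer rings of the core and its gate, 4 rose (Psma2, Psma5, Psma6 and Psma7), and the median log2 fold change of the 7 was 0.42. Psma6 (ENSMUSG00000021024, chr12:55384222-55418454, plus strand) had 493, 708, 589.8 and 669 normalised reads in vehicle replicates 1 to 4 and 873 to 1239 (median 1054) in the 6 SP2509 libraries. The groups did not overlap, with means of 615 ± 94.9 (SD, n = 4) and 1061 ± 143 (SD, n = 4 units), and Psma6 rose by 0.75 (SE 0.13, adjusted p = 0.0125); this and all fold changes below are log2 differences of value + 1. Psma5 (ENSMUSG00000068749, chr3:108256926-108279974, plus strand) had 306, 385, 383 and 382 in vehicle and 506 to 669.5 (median 599) in SP2509. It rose by 0.70 (SE 0.12, adjusted p = 0.0124), again without overlap. Psma2 (ENSMUSG00000015671, chr13:14613240-14674236, plus strand) had 621, 843, 799.6 and 797 against 1044 to 1251 (median 1149.8) and rose by 0.60 (SE 0.11, adjusted p = 0.013). For these 3 genes vehicle replicate 1 was the lowest of the 10 libraries, and when each library was left out in turn the lowest fold changes were 0.50 (Psma2), 0.62 (Psma5) and 0.65 (Psma6). Psma7 ranged over 1170.0 to 1339 in vehicle and 1583 to 1771 in SP2509 and rose by 0.42 (SE 0.09, adjusted p = 0.022). The other alpha genes were not called: Psma1 had a log2 fold change of 0.35 (adjusted p = 0.0509) with no overlap between groups (816 to 973 in vehicle and 1091 to 1334 in SP2509), and Psma4 (1231 to 1486 in vehicle and 1407 to 1669 in SP2509) of 0.21 (adjusted p = 0.21). Psma3 (ENSMUSG00000060073, chr12:70974621-70996347, plus strand) had the smallest difference of the core. Its 4 vehicle libraries lay close together, at 957, 974, 963 and 949, inside the SP2509 range of 932 to 1269.7 (median 1007), and its log2 fold change was 0.12 (SE 0.10, adjusted p = 0.464).

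Copies of some alpha genes, and of genes in other roles, make their counts uncertain. A processed pseudogene of Psma3, Gm13835, is identical to 665 bases of its transcript, so reads from that stretch cannot be assigned to either from the table. Gm13835 had 347, 350.1, 343 and 395 normalised reads in vehicle and 438 to 555 (median 501) in SP2509 and rose by 0.47 (SE 0.10, adjusted p = 0.0184), more than Psma3 itself. Psma5 has 2 copies in the table, of 97.55% and 98.63% identity, which held 421 and 283 reads over the 10 libraries, against 1113 and 4440 reads for Psma5 in vehicle and SP2509. A copy of Psma4 (96.81% identity) held 191 reads. Outside the alpha genes, copies of Psmb3 (97.07% and 97.09%) held 746 and 444 reads. Copies of Psmb5 (98.87%), Psmd2 (96.37%) and Adrm1 (99.78%) held 218, 80 and 199 reads. A transcript that matches Psmd11 in reverse (98.06%) held 861 reads.

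The beta subunits form the inner rings. Of the 7, 3 rose (Psmb1, Psmb2 and Psmb7), and the median log2 fold change was 0.41. Psmb7 (ENSMUSG00000026750, chr2:38588036-38644087, minus strand), the trypsin-like catalytic subunit, had the largest fold change of the 45 genes. Its vehicle libraries held 137, 210.4, 177 and 169 normalised reads and its SP2509 libraries 415, 496, 468, 402, 398 and 912. Every SP2509 library was above every vehicle library, and replicate 6 stood well above the other 5. The means were 173 ± 30.1 (SD, n = 4) and 559 ± 237 (SD, n = 4 units), a ratio of 3.22, and Psmb7 rose by 1.51 (SE 0.22, adjusted p = 0.0118), with a range of 1.34 to 1.61 when each library was left out in turn.

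Psmb7 was also the lowest core gene per transcript length in vehicle, at 149.5 normalised reads per kb of its main transcript against 2331 for Psmb6, and 482 against 2752 in SP2509. The subunits are present in equal numbers in the particle, which RNA levels need not follow. Psmb7 shares 405 exonic bases (11.8% of its exons) with Nek6, a kinase gene on the opposite strand, and whether the counting used strand is not given in the sources used here. Nek6 had 158, 117, 138 and 163 in vehicle and 141 to 175 (median 149.6) in SP2509, with a log2 fold change of 0.11 (adjusted p = 0.66). The level of Psmb7 is thus uncertain, and the part of shared reads in it was not tested.

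Psmb5 (ENSMUSG00000022193, chr14:54614119-54618022, minus strand), the chymotrypsin-like subunit, had 925, 1463, 1153 and 1184 normalised reads in vehicle and 1383 to 1883 (median 1484) in SP2509. The groups overlapped, since vehicle replicate 2 lay above some SP2509 libraries, and the log2 fold change of 0.41 (SE 0.14, adjusted p = 0.0806) was not called. Psmb6 (ENSMUSG00000018286, chr11:70525367-70527858, plus strand), the caspase-like subunit, had 1679.9, 2228, 1899 and 1632 against 2064 to 2323 (median 2211). The log2 fold change of 0.25 (SE 0.12, adjusted p = 0.183) was the smallest of the beta genes, with a 95% interval of -0.0026 to 0.50. Means were 1181 ± 221 (SD, n = 4) and 1606 ± 208 (SD, n = 4 units) for Psmb5, and 1859.8 ± 272 (SD, n = 4) and 2196 ± 130.4 (SD, n = 4 units) for Psmb6.

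Among the beta subunits without catalytic activity, Psmb1 (ENSMUSG00000014769, chr17:15475021-15499751, minus strand) had 962, 1224, 1358 and 1280.4 in vehicle and 1645 to 1879 (median 1731) in SP2509 and rose by 0.54 (SE 0.11, adjusted p = 0.0183). Psmb2 (ENSMUSG00000028837, chr4:126677630-126709714, plus strand) had 571, 696, 521 and 587 against 761 to 914 (median 908) and rose by 0.56 (SE 0.11, adjusted p = 0.0136). Neither gene overlapped between groups. Psmb3 and Psmb4 did not overlap either but were not called, with log2 fold changes of 0.27 (adjusted p = 0.0932) and 0.41 (adjusted p = 0.0581). Psmb3 ranged over 1416 to 1669 in vehicle and 1691 to 1889 in SP2509, and Psmb4 over 1168 to 1674 in vehicle and 1720.3 to 2199 in SP2509.

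In the immunoproteasome, Psmb8, Psmb9 and Psmb10 take the places of Psmb5, Psmb6 and Psmb7. Per library, Psmb10 had 1.91 to 2.81 reads for each Psmb7 read in vehicle and 0.543 to 1.33 in SP2509, without overlap, while Psmb8 per Psmb5 (0.204 to 0.325 and 0.105 to 0.374) and Psmb9 per Psmb6 (0.0872 to 0.148 and 0.0589 to 0.186) overlapped. None of the 5 interferon-inducible genes (these and the activator genes Psme1 and Psme2) was called by limma or edgeR, which called 4.95% and 5.34% of all genes higher. By DESeq2 1 was called (9.47% of all genes higher), and 1 had an unadjusted limma p under 0.05 (28.0% of all genes). Without SP2509 replicate 6 limma called 1 of the 5 higher (11.5% of all genes), and with library weights 2 (13.93%). The log2 fold changes were 0.40 for Psmb8, 0.34 for Psmb9, 0.31 for Psmb10 (adjusted p = 0.0627, no overlap), 0.17 for Psme1 and -0.08 for Psme2. Normalised reads of Psmb8 ranged over 189 to 374 in vehicle and 199 to 562 in SP2509, of Psmb9 over 146 to 280.1 in vehicle and 137 to 397 in SP2509, of Psmb10 over 386 to 438 in vehicle and 482 to 577 in SP2509, of Psme1 over 607 to 885 in vehicle and 810.4 to 897 in SP2509, and of Psme2 over 539 to 683 in vehicle and 478 to 724 in SP2509. SP2509 replicate 6, which had the highest Psmb5, Psmb6 and Psmb7, had the lowest Psmb8 and Psmb9 of the 6.

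**Figure D3:**
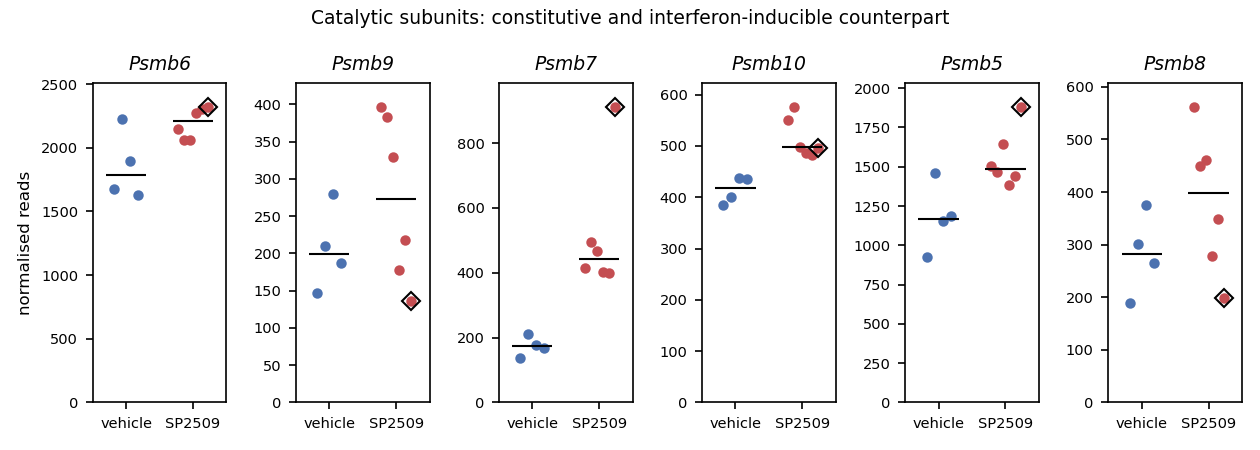
Normalised reads of the 3 catalytic subunits Psmb6, Psmb7 and Psmb5, each followed by its interferon-inducible counterpart, in 4 vehicle (blue) and 6 SP2509 (red) libraries; points are libraries, bars are group medians, the diamond marks SP2509 replicate 6 and each axis starts at 0. Psmb7 separates fully, with 912 in replicate 6, Psmb10 separates narrowly, and the other 4 genes overlap.

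Of the 10 base genes, 4 rose (Psmc1, Psmc2, Psmd1 and Psmd2) and the median log2 fold change was 0.38. Psmd1 (ENSMUSG00000026229, chr1:86064387-86139151, plus strand), a large scaffold protein to which ubiquitin receptors dock, had 362, 373, 389 and 436 normalised reads in vehicle and 517 to 865 (median 608) in SP2509, with the highest value in replicate 6. It rose by 0.67 (SE 0.14, adjusted p = 0.0184). Psmc1 (ENSMUSG00000021178, chr12:100110154-100123405, plus strand) and Psmc2 (ENSMUSG00000028932, chr5:21785283-21803787, plus strand) encode ATPases of the unfolding ring. Psmc1 had 749, 1041, 932 and 840.4 against 1159.7 to 1455 (median 1269.7) and rose by 0.53 (SE 0.11, adjusted p = 0.0194). Psmc2 had 749, 1087, 922 and 901 against 1195 to 1506 (median 1322) and rose by 0.54 (SE 0.12, adjusted p = 0.0208). None of these 3 overlapped between groups. Psmd2, the other large scaffold, ranged over 1569 to 2176 in vehicle and 2337 to 3017 in SP2509 and rose by 0.47 (SE 0.13, adjusted p = 0.0388).

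The remaining ATPases differed less. Psmc3, Psmc4 and Psmc5 had log2 fold changes of 0.44 (adjusted p = 0.0614), 0.19 (adjusted p = 0.258) and 0.26 (adjusted p = 0.157). Psmc3 ranged over 1309 to 1849 in vehicle and 1965 to 2791 in SP2509, Psmc4 over 1053 to 1267 in vehicle and 1146 to 1434 in SP2509, and Psmc5 over 1558 to 2076 in vehicle and 1936 to 2225 in SP2509. Psmc6 (ENSMUSG00000021832, chr14:45329788-45349705, plus strand) had 1038, 1035, 904 and 1009 in vehicle and 959 to 1409 (median 1044) in SP2509, and 1 of the 6 SP2509 libraries, replicate 6, stood above the rest. Its log2 fold change of 0.13 (SE 0.12, adjusted p = 0.483) was the lowest of the base. The ring holds 1 copy of each ATPase, and the fold changes of its 6 genes ran from 0.13 to 0.54. The ubiquitin receptors Psmd4 and Adrm1 had 0.31 (adjusted p = 0.0813) and 0.29 (adjusted p = 0.0711), and in both every SP2509 library lay above every vehicle library: Psmd4 ranged over 1469 to 1889 in vehicle and 2013 to 2336 in SP2509, and Adrm1 over 969.7 to 1123 in vehicle and 1189 to 1368 in SP2509.

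Of the 8 lid genes 4 rose (Psmd8, Psmd12, Psmd13 and Psmd14), and the median log2 fold change was 0.43. Psmd14 (ENSMUSG00000026914, chr2:61711694-61800376, plus strand), the metalloprotease that cuts ubiquitin chains off the substrate, was even across vehicle at 339, 355, 328 and 354 and had 459 to 611 (median 563) in SP2509. It rose by 0.65 (SE 0.11, adjusted p = 0.0125), and its fold change moved only from 0.61 to 0.70 when libraries were left out. Psmd12 (ENSMUSG00000020720, chr11:107479484-107504362, plus strand) had 777, 745, 707 and 646 against 933 to 1251 (median 966) and rose by 0.48 (SE 0.11, adjusted p = 0.0235). Psmd13 (ENSMUSG00000025487, chr7:140881968-140898643, plus strand) had 459.8, 623, 539 and 725 against 788 to 999 (median 846) and rose by 0.57 (SE 0.13, adjusted p = 0.0245). Both are scaffold subunits of the lid, and Psmd13 shares 342 exonic bases with Sirt3 on the opposite strand. Psmd8 rose by 0.47 (SE 0.12, adjusted p = 0.0365), with 983 in vehicle replicate 2 just below 985 in the lowest SP2509 library. Psmd6, Psmd7 and Psmd11 had log2 fold changes of 0.32, 0.40 and 0.27 and were not called. They ranged over 601 to 688 in vehicle and 719 to 1025 in SP2509 for Psmd6, 751 to 1060.4 in vehicle and 1049.9 to 1595 in SP2509 for Psmd7, and 573 to 683 in vehicle and 626 to 981 in SP2509 for Psmd11. Psmd3 (ENSMUSG00000017221, chr11:98682554-98695979, plus strand) had the smallest difference of the lid: 1478, 1517, 1553 and 1551 in vehicle and 1644 to 2142 (median 1778) in SP2509, a log2 fold change of 0.26 (SE 0.10, adjusted p = 0.136) without overlap.

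No assembly chaperone was called by limma, edgeR or DESeq2, which called 4.95%, 5.34% and 9.47% of all genes higher. Of the 8, 4 had an unadjusted limma p under 0.05, as did 28.0% of all genes. With library weights, limma called Pomp (adjusted p = 0.0207) and Psmg4 (adjusted p = 0.0446). The median log2 fold change of the 8 was 0.26, and 1 of them, Psmg4, did not overlap between groups. Psmg1 to Psmg4 and Pomp guide the alpha and beta rings of the core together. Psmg4 (ENSMUSG00000071451, chr13:34162964-34178173, plus strand) had 111, 169, 138 and 149 normalised reads in vehicle and 176 to 215 (median 182) in SP2509, a log2 fold change of 0.41 (SE 0.14, adjusted p = 0.0858). Pomp (ENSMUSG00000029649, chr5:147860461-147876456, plus strand), which joins the core precursors and is the first substrate of the new particle, had 1209, 1404, 939 and 1160.1 against 1265 to 1601 (median 1423), a log2 fold change of 0.27 (SE 0.12, adjusted p = 0.168) with overlap. Psmg3 (ENSMUSG00000029551, chr5:139823592-139826885, minus strand) had 111, 114, 153 and 179 against 134 to 217 (median 149) and a log2 fold change of 0.20 (SE 0.19, adjusted p = 0.512). The partners Psmg1 and Psmg2, whose proteins pair and hold the alpha ring, were the members nearest to no difference. Psmg1 ranged over 214 to 369 in vehicle and 238 to 332 in SP2509, with a log2 fold change of 0.06 (95% interval -0.31 to 0.42). Psmg2 (ENSMUSG00000024537, chr18:67641599-67654162, plus strand) had 436, 464, 348 and 342 against 365 to 457 (median 384) and 0.02 (95% interval -0.25 to 0.29).

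The base chaperones Psmd5, Psmd9 and Psmd10 hold the ATPases until the ring closes. Psmd9 (ENSMUSG00000029440, chr5:123169413-123250131, plus strand) had 156, 197, 201 and 224 in vehicle and 222 to 268 (median 240.0) in SP2509, a log2 fold change of 0.33 (SE 0.13, adjusted p = 0.122). Psmd5 (ENSMUSG00000026869, chr2:34849734-34874968, minus strand) had 300.4, 239.6, 190.0 and 270.3 against 243 to 349.7 (median 298), a log2 fold change of 0.25 (SE 0.16, adjusted p = 0.328). Psmd10 (ENSMUSG00000031429, chrX:140948429-140956728, minus strand), also known as gankyrin, was the scarcest member, at 33.4, 112, 67.6 and 89.8 against 82.2 to 140.2 (median 117). Its log2 fold change of 0.67 (SE 0.30, adjusted p = 0.162) had a wide error, and without vehicle replicate 1, where 18 reads were counted, it was 0.33. Of the exonic bases of Psmd9, 25.5% are shared with Gm26745, a noncoding gene on the opposite strand.

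Psme3 (ENSMUSG00000078652, chr11:101316213-101323537, plus strand) encodes the nuclear activator PA28 gamma, which opens the core to substrates without ubiquitin. It had 668, 521, 552 and 562 normalised reads in vehicle and 737 to 967 (median 803) in SP2509, without overlap, and rose by 0.52 (SE 0.11, adjusted p = 0.0184). Psmf1 (ENSMUSG00000032869, chr2:151715812-151744186, minus strand), the inhibitor PI31, had 202, 243, 218 and 212 against 244 to 315 (median 296), a log2 fold change of 0.40 (SE 0.12, adjusted p = 0.0551), also without overlap. Psme4 (ENSMUSG00000040850, chr11:30771726-30880361, plus strand), the activator PA200, had 1011, 818, 947 and 875 against 971 to 1764 (median 1034). Replicate 6 held the highest value and the other 5 SP2509 libraries reached no more than 1037, and the log2 fold change was 0.29 (SE 0.16, adjusted p = 0.254).

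Uchl5 (ENSMUSG00000018189, chr1:143777272-143807466, plus strand) and Usp14 (ENSMUSG00000047879, chr18:9993066-10045119, minus strand) encode the deubiquitinases that dock on the cap and trim chains. Uchl5 had 129.8, 164, 166 and 203 in vehicle and 254, 255, 362, 367, 366 and 282 in SP2509, so every SP2509 library was above every vehicle library. It rose by 0.92 (SE 0.17, adjusted p = 0.0132), the largest fold change outside the core. Usp14 had 362, 436, 286 and 394 against 385 to 518 (median 433), overlapping, and a log2 fold change of 0.27 (SE 0.14, adjusted p = 0.216). Of Usp14, 2169 exonic bases (26.0%) lie opposite Thoc1, whose log2 fold change was -0.29 (adjusted p = 0.162), so its count may hold reads of that gene. Adrm1, which anchors Uchl5 on the cap, had a log2 fold change of 0.29 against 0.92 for Uchl5.

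**Figure D4:**
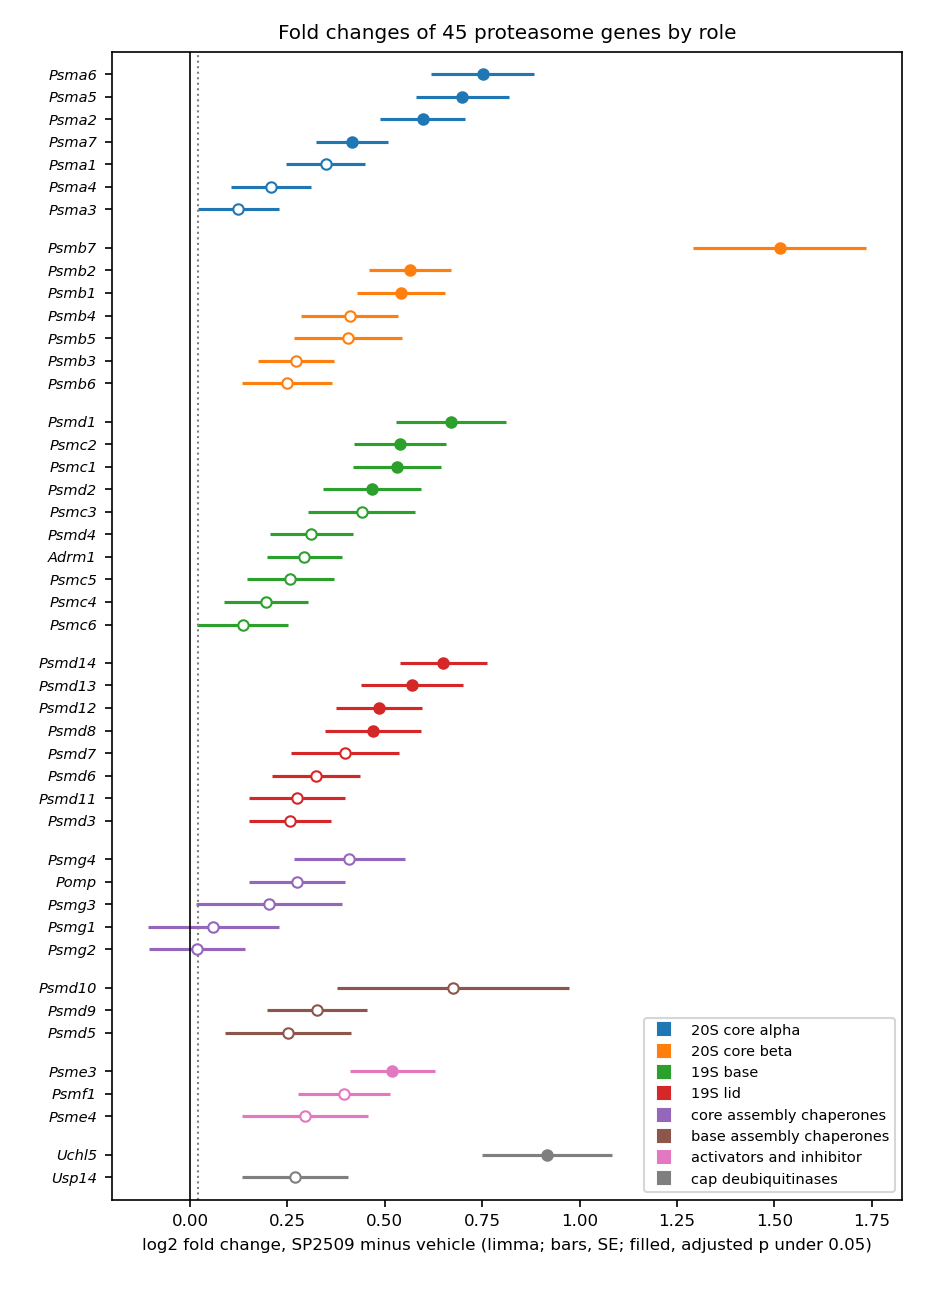
Log2 fold change (SP2509 minus vehicle, limma) of each of the 45 genes, grouped and coloured by role and sorted within each role; bars are standard errors, filled points have an adjusted p under 0.05 and the dotted line is the median of all genes at 0.02. All 45 points lie above 0 with the deposited scaling (41 of 45 when rescaled without mitochondrial genes), with Psmb7 at 1.51 and Uchl5 at 0.92 farthest right and Psmg2 at 0.02 farthest left.

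Set side by side, the core and the cap had nearly equal medians, 0.41 with 7 of 14 called and 0.42 with 8 of 18 called, and the assembly chaperones a lower one, 0.26 with 0 of 8 called. Of all genes 4.95% were called higher, and 0 of 8 is near that share. Psmd10, Psmg3, Psmg4 and Psmd9 were under 100 reads in a library, as were the called Uchl5 and Psmb7. Psmg4 with 0.41 (SE 0.14) was not called and Psma7 with 0.42 (SE 0.09) was. The part of depth and error in the calls was not tested. When 1 library was left out, 5 to 10 core genes and 1 to 11 cap genes were called. Both counts were lowest without vehicle replicate 1, where 1.001% of all genes were called higher. They were highest without SP2509 replicate 6, where 11.5% were. For the cap, the count was 1 without vehicle replicate 1, 4 without vehicle replicate 3, 5 without vehicle replicate 4 or SP2509 replicate 1 or 2, and 11 without SP2509 replicate 6. Averaged per library and set against the vehicle mean, the 14 core genes stood at -0.162 to 0.159 in vehicle and 0.435 to 0.669 in SP2509. The 18 cap genes stood at -0.130 to 0.135 and 0.323 to 0.638. Neither overlapped between groups. The 8 chaperones stood at -0.178 to 0.207 and 0.202 to 0.398, and SP2509 replicate 6 at 0.202 lay below vehicle replicate 2. The mean log2 level of the core minus that of the chaperones overlapped between groups (1.83 to 2.03 in vehicle, 1.95 to 2.38 in SP2509), as did that of the cap minus the chaperones (1.91 to 2.07, and 1.91 to 2.42). The lower median of the chaperones is therefore a description and was not shown to differ from that of the core or the cap.

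The mean log2 level of the core minus that of the cap was -0.100 to -0.0397 in vehicle and -0.0367 to 0.0927 in SP2509, which do not overlap by a narrow margin. The separation needed 1 gene: without Psmb7 the difference was 0.0915 to 0.136 in vehicle and 0.00948 to 0.204 in SP2509, which overlap. Leaving out Psmb7 was chosen after its values were seen.

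**Figure D5:**
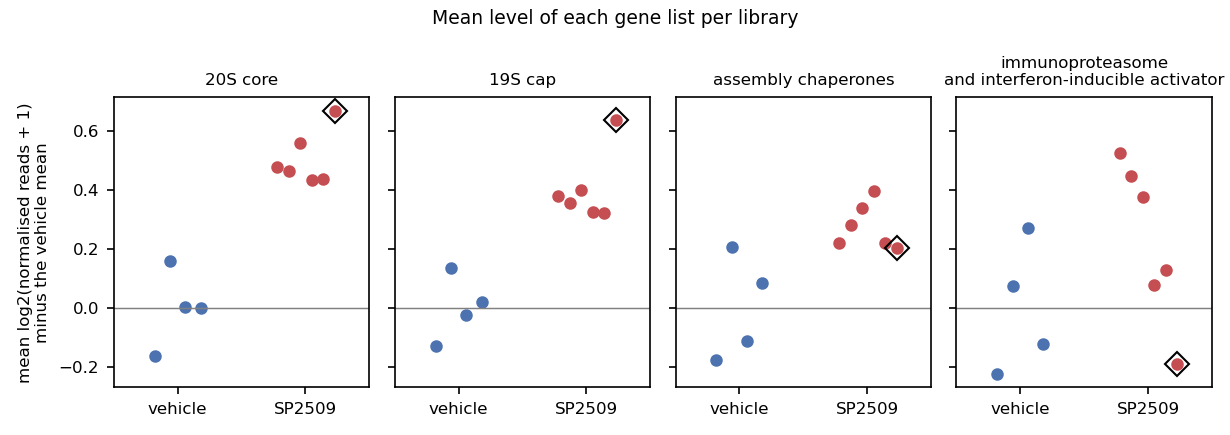
Mean of log2(normalised reads + 1) over the genes of a list, minus the mean of the 4 vehicle libraries, for the 20S core, the 19S cap, the assembly chaperones and the interferon-inducible genes in each of 4 vehicle (blue) and 6 SP2509 (red) libraries; the diamond is SP2509 replicate 6. Core and cap separate the groups with replicate 6 on top, the chaperones overlap narrowly, at 0.202 and 0.207, and in the interferon-inducible list replicate 6 lies among the lowest.

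Levels per kb of the main transcript put the core highest. In vehicle the median was 720.3 normalised reads per kb over the 14 core genes, 536 over the 18 cap genes and 207 over the 8 chaperones, and in SP2509 it was 1024, 774 and 218. Within the beta subunits the vehicle levels spanned 149.5 (Psmb7) to 2331 (Psmb6), and within the base 125 (Psmd1) to 1305 (Psmc5). The base chaperones were the lowest role, at 52.9 to 74.9. The median coefficient of variation over the 45 genes was 14.02% over the vehicle libraries and 10.6% over the 4 SP2509 units. Close pairs are averaged in the units, so these medians are not like for like. Single genes varied more: Psmd10 reached 44.3% in vehicle, and Psmb7 42.5% and Psme4 30.8% over the SP2509 units.

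Around the proteasome, genes that bring substrates to it rose in part. Of 14 genes for ubiquitin, its activating enzymes and shuttle factors, 6 rose and none fell by limma, with a median log2 fold change of 0.44. When 1 library was left out, 1 (without vehicle replicate 1) to 7 (without SP2509 replicate 6) were called, and 3 without vehicle replicate 3 or 4 or SP2509 replicate 1. The share of all genes called higher moved too. It was 1.001% without vehicle replicate 1, 11.5% without SP2509 replicate 6, and 2.21% to 2.83% in the fits that called 3. Uba1 (ENSMUSG00000001924, chrX:20658326-20683179, plus strand), the main ubiquitin-activating enzyme, had 1399.9, 1468, 1305 and 1334 normalised reads in vehicle and 1876 to 2171 (median 1991) in SP2509 and rose by 0.55 (SE 0.10, adjusted p = 0.0125). Rps27a, which encodes ubiquitin fused to a ribosomal protein, had 3556, 3366, 4127 and 3293 against 4639.9 to 7318 (median 6289) and rose by 0.78 (SE 0.16, adjusted p = 0.0162). The shuttles Ubqln1 and Rad23b, which carry chains to the cap, rose as well. Ubqln1 had 475, 609.6, 580.0 and 596 against 696 to 980.3 (median 834) and rose by 0.56 (SE 0.12, adjusted p = 0.0181). Rad23b had 931, 952, 793 and 828 against 1088 to 1308 (median 1186) and rose by 0.45 (SE 0.10, adjusted p = 0.0217). The other two that rose were Ubb and Sqstm1. Ubiquitin genes share coding sequence, so counts of Ubb and Rps27a are uncertain. Of 10 genes of the unfoldase p97 and its cofactors, 3 rose and the median was 0.22. None was called without vehicle replicate 1, vehicle replicate 3 or SP2509 replicate 3 (1.001% to 2.29% of all genes called higher). Of the p97 genes, 1 or 2 were called when any other library but SP2509 replicate 6 was left out (2.24% to 3.59%). Without that library 4 were (11.5%). Vcp, which encodes p97, had 1602, 2142, 1993 and 2159 against 2641 to 3711 (median 2827) and rose by 0.57 (SE 0.13, adjusted p = 0.026). Faf1 had 259.6, 287, 297 and 286 against 358 to 537 (median 385) and rose by 0.51 (SE 0.12, adjusted p = 0.0299). Plaa had 434, 485, 436 and 444 against 513 to 691 (median 592) and rose by 0.42 (SE 0.11, adjusted p = 0.0335). Faf1 and Plaa were also not called without the filter, with the rescaling described last, or without the variance trend. The thymus and testis subunits Psmb11 and Psma8 were below the filter, with at most 7.04 and 5.39 normalised reads in a library.

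Of the 17 genes that regulate proteasome transcription, none was called by limma or edgeR over 10 libraries and 2 were by DESeq2. An unadjusted limma p under 0.05 was found for 3 of them, as for 28.0% of all genes, and the median log2 fold change was 0.10. The 3 were Nfe2l1, Maff and Mafg, of which the last, like Maff a gene of a small Maf protein, had a negative log2 fold change: 0.76 for Maff (adjusted p = 0.0639) and -0.45 for Mafg (adjusted p = 0.0886). Maff ranged over 87.1 to 191 in vehicle and 195 to 344 in SP2509, and Mafg over 2841 to 3847 in vehicle and 1997 to 3308 in SP2509. Nfe2l1 (ENSMUSG00000038615, chr11:96817414-96829968, minus strand), the gene of NRF1, had 2136, 3073, 3059 and 2873 in vehicle and 3603, 3719, 3713, 3346, 3641 and 9067 in SP2509. The groups did not overlap, and replicate 6 was far above the other 5. Its log2 fold change was 0.61 (SE 0.26, adjusted p = 0.149), and without replicate 6 it was 0.39 with an adjusted p of 0.0351, which passes the test. The fit without replicate 6 called 11.5% of all genes higher. Of the 17 regulators it called 2 higher, Nfe2l1 and Nfe2l2, and 1 lower, Mafg. Ddi2 and Ngly1, whose products process NRF1 to its active form, had 0.02 (adjusted p = 0.934) and 0.17 (adjusted p = 0.37). NRF1 is controlled largely after translation, and these RNA levels do not measure it.

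SP2509 replicate 6 was the highest of the 10 libraries in 23 of the 45 genes and vehicle replicate 1 the lowest in 26. Replicate 6 also had the most muscle RNA, 780295 normalised reads over the 12 markers against at most 363590 in any other library, and the least keratinocyte RNA. Without SP2509 replicate 6, 24 members and 11.5% of all genes were called higher, the median of the 45 was 0.35 and that of the cap 0.34. Without vehicle replicate 1, 8 members and 1.001% of all genes were called higher, with a median of 0.35. Without SP2509 replicates 4 and 5, the libraries rich in gland genes, 6 members and 1.28% of all genes were, with a median of 0.40. With the mean of the muscle markers as a covariate, 12 members and 4.97% of all genes were, the core median was 0.40 and the cap median 0.25. Other marker lists moved with the groups too. Summed keratinocyte markers lay above every vehicle library in 5 of the 6 SP2509 libraries, and below all of them in replicate 6. Summed leukocyte markers were 1156 to 2194 in vehicle and 2356 to 9128 in SP2509, without overlap. The sum does not speak for each gene of that list. Of its 9 genes tested, none was called higher and 1 was called lower, and their median log2 fold change was 0.13. Summed Schwann cell and nerve markers were 7907 to 16523 and 3949 to 9390, below every vehicle library in 5 of 6. The part of keratinocyte, gland, leukocyte or nerve RNA in the result was not tested. The 8 genes called in each of the 10 fits that left out 1 library were Psma2, Psma5, Psma6, Psmb2, Psmb7, Psmd14, Psme3 and Uchl5. Each of these fits keeps at least 1 library of each close pair, and the share of all genes called in all 10 was not counted. Without SP2509 replicates 4 and 5 together, neither Psme3 nor Uchl5 was called, and 1 of the 7 beta genes was. Psme3 was also not called when libraries were rescaled to equal totals without mitochondrial genes. With the close pairs averaged, none of the 8 was called.

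The scaling bears on the directions. When libraries were rescaled to equal totals without mitochondrial genes, the median of all genes moved from 0.02 to -0.13 and the members' median from 0.40 to 0.25. The members' median stood 0.38 above that of all genes with the deposited scaling and 0.37 above it with the other. This gap could hardly move, since rescaling multiplies all genes of a library by the same factor, so it lends no support. Psma3, Psmc6, Psmg1 and Psmg2 were then at or below 0, and 10 members were called higher and none lower, while the calls over all genes went from 846 higher and 709 lower to 297 and 1442. With equal upper quartiles or quantile normalization, Psmg1 and Psmg2 were at or below 0. Quantile normalization, which does not use the same factor for all genes of a library, called 15 members, and 666 genes higher and 1060 lower. With it the members' median stood 0.32 above that of all genes.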

How the data were processed

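RNA from 10 tongue libraries (4 vehicle, 6 SP2509) was enriched for poly-A RNA, per the labels' protocols. HISAT2, featureCounts and the mouse build mm10 are named in the submitters' processing notes; the annotation, the strand setting and the scaling tool are unstated (not given in the sources used here). In the table the signal deposited for a gene is a count that the authors divided by a size factor of the library; this was read from the values, 100% of which came out as whole reads within 0.01. The whole reads were recovered that way, and no column belonged to another sample. Of 27151 gene IDs, 27113 matched a symbol. Coordinates are those of GENCODE M21 on GRCm38, and promoter letters those of RefSeq.

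The test was limma 3.58.1 (R 4.3.3) on log2(value + 1), with an intensity trend and robust moderation, two-sided. It covered the 17088 genes that reached 10 normalised reads in 4 or more libraries, with Benjamini-Hochberg adjustment and calls under 0.05. The scale understates changes of low genes. Alternatives were the pseudocount, the filter, 3 rescalings, library weights, a replicate block, averaged close pairs, left-out libraries, muscle markers as a covariate, and count tests on the whole reads by edgeR 4.0.16 (912 genes higher, 585 lower) and DESeq2 1.42.0 (1618 and 1388). Transcripts were aligned with minimap2 2.31 to find copies, and Python 3.11.15, pandas 2.3.3, NumPy 2.4.6 and matplotlib 3.10.9 were used.

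The members, gene lists and motifs were chosen with earlier results of these data known. By a rule written at that time, values per library, or their range, are given for Psmb5, Psmb6 and Psmb7, for the 3 smallest p and the lowest fold change of each role, for the interferon-inducible genes, for Nfe2l1 and for up to 4 called genes of each pathway list. Neighbouring or copied genes (Nek6, Thoc1, Gm13835) and the remaining members were named for context. Replicate numbers were not used to pair libraries. Apart from Psmb11 and Psma8, the list of other proteasome-bound and tissue-type genes is not reported here.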

Additional observations from a re-analysis of the deposited data

Results flagged for a closer look

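Among 134 groups of 4 values checked (the 4 vehicle libraries or the 4 SP2509 units, for the 45 members and 22 other named genes), 17 held a value far from the other 3 by Dixon's criterion, which chance alone meets in about 1 group in 20. SP2509 replicate 6 was the far value in 10 of these genes, and each time the highest. It held 9067 normalised reads of Nfe2l1, against 3713 in the next SP2509 unit. For Psmb7 it held 912 against 468, for Psme4 1764 against 1033 and for Psmd12 1251 against 987. For Psmc3 it held 2791 against 2014, for Psmd4 2336 against 2076, for Psmd6 1025 against 799 and for the shuttle gene Sqstm1 5291 against 2975. For the p97 genes it held 3711 of Vcp against 2794, and 537 of Faf1 against 385. The same library had the highest summed muscle markers and the lowest summed keratinocyte markers, and the part of tissue makeup in these 10 values was not tested. The unit of SP2509 replicates 4 and 5 was the lowest for Psmd14, at 463 against 578 in the next unit, and the highest for Psmg4, at 198 against 182. Vehicle replicate 2 was the highest vehicle library for Psmc4, at 1267 against 1074, and for Psmc5, at 2076 against 1647. Vehicle replicate 1 was the lowest for Psma5, at 306 against 382 in the next vehicle library. It was the highest for Thoc1, at 1116 against 809, and vehicle replicate 4 was the highest for Gm13835, at 395 against 350.1.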

How the results depend on the processing

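Of the 45 members, 17 rose in the fit of 10 libraries (4.95% of all genes), 10 with libraries rescaled to equal totals without mitochondrial genes (1.74%), 30 with library weights (13.93%), 0 with the close pairs averaged (0%) and 6 without SP2509 replicates 4 and 5 (1.28%). Leaving out 1 library gave 8 (without vehicle replicate 1; 1.001% of all genes) to 24 (without SP2509 replicate 6; 11.5%) called higher and 0 called lower. The cause of these moves was not tested, and the averaged fit also had fewer units. With the same rescaling the members above every vehicle library numbered 15 in place of 27 (2.65% of all genes in place of 6.54%), and the medians were 0.25 for all members, 0.26 for the core, 0.27 for the cap and 0.11 for the chaperones. That rescaling moved the calls over all genes from 846 higher and 709 lower to 297 and 1442, and quantile normalization to 666 and 1060, where 43 of 45 members stayed above 0 and 15 were called. With a muscle covariate the cap median was 0.25. When 1 library was left out, 27 to 33 members did not overlap (6.87% to 11.4% of all genes). That count could not fall below 27, since leaving out a library cannot make separated groups overlap. The medians in these fits were 0.35 to 0.44 for all members, 0.39 to 0.48 for the core, 0.34 to 0.46 for the cap and 0.21 to 0.31 for the chaperones. The replicate block over replicates 1 to 4 gave 15 members called higher (6.78% of all genes). The same libraries without the block, a fit added after seeing the data, gave 21 (9.235% of all genes). The numbers do not pair the libraries (correlations of same-numbered deviations -0.20 to 0.13). No count of non-overlapping members exists for the weights, the covariate, the untrended fit, edgeR or DESeq2. Over the 45 members and 22 other named genes, 166 fold changes under an alternative lost a call, 53 gained one and none that was called changed sign. The remaining 1523 kept their status. These include genes called in neither fit, so they do not give the share of calls that held. Depth limits the 6 members under 100 reads in a library: Psmd10 (18), Psmg3 and Psmg4 (60 each), Uchl5 (70), Psmb7 (74) and Psmd9 (84).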
